A study of Mus with 4 samples.

Results

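Ipw is a long non-coding RNA of the imprinted Snrpn to Ube3a region, and its probe set gave a high reading on a single array of this series. The genes described here are Ipw, the other imprinted genes of its region Snrpn, Ndn and Magel2, and the imprinted genes Peg3, Peg10, H19, Igf2, Meg3 and Dlk1 of other regions. They were listed by name to ask whether the Ipw reading has company at its own locus or at other imprinted loci. The array's annotation gave a symbol to 7 of the 10 listed genes, among 19505 named genes in all, and each of the 7 has 1 probe set. Snrpn, H19 and Meg3 have no symbol there and were not analysed here. Ipw was chosen for its reading on the array labelled shNrf3-HFD, so its values are a description and were not tested.

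An imprinted gene is expressed mainly from the copy inherited from 1 parent, because DNA methylation set in the egg or sperm marks the parental copies of a control region. Ipw, Snrpn, Ndn and Magel2 are expressed from the paternal copy, and Ipw belongs to a long transcript domain that starts near Snrpn, hosts small nucleolar RNAs and reaches antisense to Ube3a. Loss of the paternal copies of the corresponding human region causes Prader-Willi syndrome. Many other imprinted genes are high in the fetus and placenta, where they act on growth, and are turned down in most adult tissues, while some tumors express them again.

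The tumors came from the mouse renal adenocarcinoma line Renca, made to express stably either shNrf3, a hairpin RNA that targets Nrf3, or the control hairpin shCtrl. Male BALB/cCrSlc mice, bought at 4 to 6 weeks of age, ate chow (NC, diet CE-2) or high-fat food (HFD, diet HFD-60) for 17 weeks. They received the cells under the skin of the flank, and tumors were taken 2 weeks later. Total RNA of the tumors was hybridized to 4 Affymetrix arrays, 1 for each hairpin on each diet, named shCtrl-NC, shCtrl-HFD, shNrf3-NC and shNrf3-HFD. All 4 groups carry a hairpin, the hairpin is in the injected cells and not in the cells of the host, and it is not stated whether an array holds 1 tumor or a pool. With 1 array per group no difference could be set against a spread between replicates, and precision is limited by having 4 arrays. In tumor tissue, fewer cells of a type and less RNA per cell cannot be told apart.

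Values are log2 signals, so that a difference of 1 is 2-fold. The yardstick for a low reading was the 5222 negative control rows of each array, whose median was 5.35 to 5.39 and whose 95th percentile was 8.97 to 9.35 on the 4 arrays. The median of the 22206 transcript rows was 5.72 to 5.83. Nfe2l3, which encodes Nrf3, read 6.22 on shCtrl-NC and 5.56 on shNrf3-NC, and 5.77 on shCtrl-HFD and 6.05 on shNrf3-HFD, so it was lower with shNrf3 in NC only. All 4 of its readings lay under the 95th percentile of the controls, so below "shNrf3" means the arrays so labelled. Of 11 epithelial and renal markers 7 read above that percentile on every array, while the renal genes Pax2, Pax8 and Lhx1 read below the control median on all 4.

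Ipw read 4.94 on shCtrl-NC, 3.92 on shNrf3-NC, 4.85 on shCtrl-HFD and 9.23 on shNrf3-HFD. The first 3 readings lay below the control median of their arrays, at the 41.0th, 21.1st and 39.4th percentile of the negative controls, and the reading on shNrf3-HFD stood far above them. On that array Ipw lay 3.84 above the control median, and at the 78.5th percentile of the transcript rows. It exceeded the 95th percentile of the controls of its own array (9.13) by only 0.096, and 251 of the 5222 control rows there read at or above it. The 95th percentile of the controls of the shCtrl-NC array (9.35) lay above the Ipw reading. Set against the control median, the Ipw difference was 3.87 or more for shNrf3-HFD over shCtrl-HFD and 3.88 or more for shNrf3-HFD over shNrf3-NC. Those comparisons share the shNrf3-HFD array and are not separate observations.

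**Figure D1:**
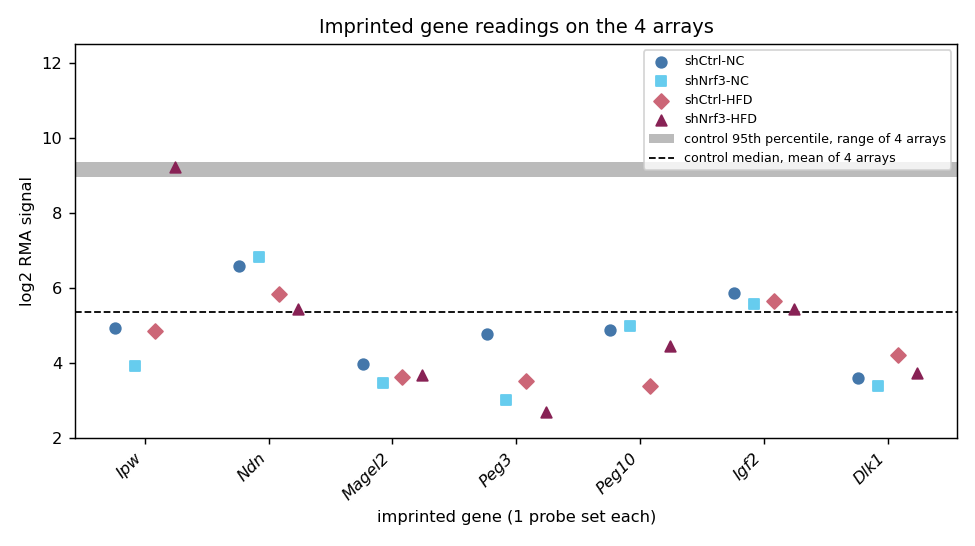
Log2 RMA signal (vertical axis) of the 7 imprinted genes with a probe set (horizontal axis), 1 point per array and 1 array per group. The dashed line is the control median averaged over the 4 arrays and the grey band spans the control 95th percentiles of the 4 arrays. Ipw on shNrf3-HFD (9.23) is the only point that reaches the band, and Ndn and Igf2 are the other genes with points above the dashed line.

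How often a row stands out on 1 array was counted by its lone excess, the reading on that array minus the highest of the other 3. The lone excess of Ipw on shNrf3-HFD was 4.29, or 3.84 against the control median, since its other readings lay below that. No other named gene reached it on that array (1 of 19505, 0.00513%). Of 19505 named genes 2, Ipw and an olfactory receptor gene, had a lone excess of 2 or more there (0.0103%). Lone readings were more frequent among the negative controls of the same array. There 50 of 5222 rows had an excess of 2 or more (0.957%), 3 reached that of Ipw (0.0574%), and the largest was 13.59. How many probes stand behind a control row was not stated, so control rows and gene probe sets need not scatter alike.

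The other arrays gave a range of such counts. A lone excess of 2 or more was seen for 2 named genes (0.0103%) and 50 control rows (0.957%) on shCtrl-NC. On shCtrl-HFD it was 2 (0.0103%) and 29 (0.555%), and on shNrf3-NC 26 (0.133%) and 34 (0.651%). At or above the Ipw value lay 5 named genes (0.0256%) on shNrf3-NC, 0 on shCtrl-NC and 0 on shCtrl-HFD, against 0, 4 (0.0766%) and 0 control rows. The stricter form of the pattern is a reading above the control 95th percentile on 1 array and below the control median on the other 3. Ipw was the only named gene with that form on shNrf3-HFD (0.00513%), and the muscle myosin gene Myh4 the only 1 on shNrf3-NC (0.00513%), while 2 control rows had it on shNrf3-HFD (0.0383%) and 1 on shCtrl-NC (0.0191%).

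**Figure D2:**
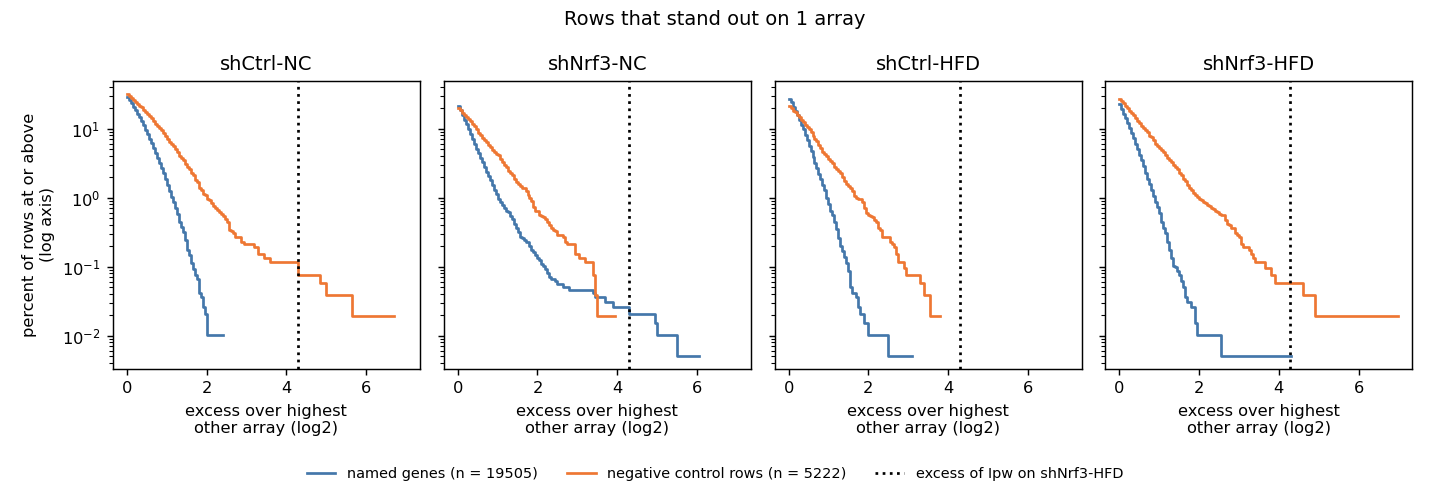
Percent of rows (log axis) whose reading on the named array exceeds the highest of the other 3 arrays by at least the log2 value on the horizontal axis, for 19505 named genes and 5222 negative control rows. The dotted line marks the Ipw excess on shNrf3-HFD (4.29), which in the shNrf3-HFD panel is reached by 1 named gene, Ipw itself, and by 3 control rows. The axis is drawn to 7, and the control row at 13.59 lies beyond it.

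Apart from Ipw and the olfactory receptor gene, no named gene had a lone excess of 2 or more on shNrf3-HFD. Olfactory and similar receptor genes, predicted genes and clone names were counted but are not named here. Zscan4f, a gene of the early embryo, and Serpina7, which encodes a thyroxine carrier, had nominal excesses of 1.87 and 1.65, but both lay below the control median on all 4 arrays and their excesses were not read. With those genes and Ipw left out, Gzmg and Muc1 were those of the 10 genes with the largest excess that lay above the control median on all 4 arrays. The granzyme gene Gzmg read 8.99 on shCtrl-NC, 10.31 on shNrf3-NC, 10.88 on shCtrl-HFD and 12.42 on shNrf3-HFD, an excess of 1.54. It belongs to a cluster of closely similar granzyme genes, so its probe set is uncertain. Muc1, an epithelial mucin gene, read 7.06, 7.40, 7.20 and 8.75, an excess of 1.34. The olfactory receptor gene had a mean absolute difference of 1.68 from Ipw over the 4 arrays.

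The measured genes nearest to Ipw showed no reading of that kind. RefSeq (mouse assembly GRCm38.p6, used for gene order only) places 258 genes from Atp10a to Mkrn3, 206 of them small nucleolar RNA genes, and 6 of the 258 carry a symbol on the array. These are Atp10a, Ube3a, Ipw, Ndn, Magel2 and Mkrn3, so that the transcripts between Ube3a and Ndn are seen through Ipw alone. Ndn, the nearest measured gene on the Snrpn side, encodes the growth-restraining MAGE family protein necdin. It read 6.58 on shCtrl-NC, 6.83 on shNrf3-NC, 5.83 on shCtrl-HFD and 5.44 on shNrf3-HFD, and was therefore lowest on the array where Ipw was high. Its readings lay at the 71.7th, 78.6th, 59.5th and 51.1st percentile of the negative controls.

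Magel2, another MAGE family gene, read 3.97, 3.48, 3.62 and 3.67 in the same order of arrays, all below the control median. Mkrn3, a ring finger gene known for its part in the timing of puberty, read 4.79 to 5.17, and Peg12 read 3.63 to 4.44. Both were below the control median on every array. On the other side Ube3a, the ubiquitin ligase gene that is expressed from the maternal copy in neurons and from both copies elsewhere, read 10.90 on shCtrl-NC, 11.24 on shNrf3-NC, 11.38 on shCtrl-HFD and 11.34 on shNrf3-HFD. Its shNrf3-HFD reading differed from that of shCtrl-HFD by -0.04. Ube3a was the only gene of the region above the control 95th percentile on all 4 arrays.

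**Figure D3:**
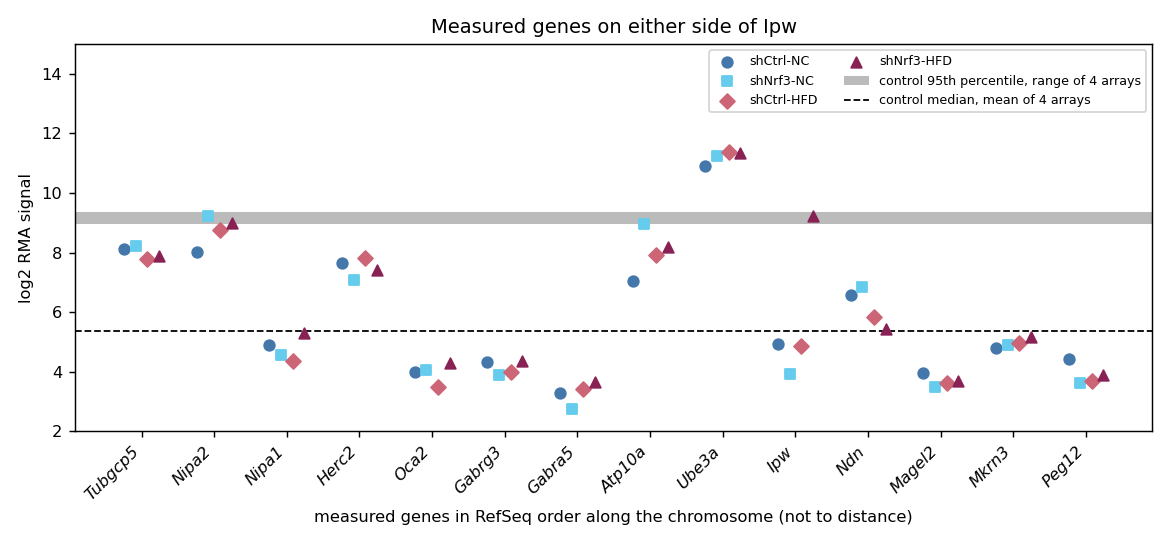
Log2 RMA signal (vertical axis) of the 14 measured genes of the wider region in RefSeq order (horizontal axis, not to distance), 1 point per array, with the control median (dashed) and the range of control 95th percentiles (grey). Ipw on shNrf3-HFD lies 3.84 above the control median of that array, while Ndn, Magel2, Mkrn3 and Peg12 on the same array lie at 5.44 or below.

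Of 13 measured genes of the wider region other than Ipw, 6 had a reading above the control median in each shNrf3 minus shCtrl comparison. Of these 6, 0 were 2-fold higher or lower with shNrf3 in HFD. The background over all named genes in that comparison was 2.13% higher and 6.36% lower. In NC 2 of the 6 were higher, against 11.6% of all named genes. They were the phospholipid flippase gene Atp10a (7.04 on shCtrl-NC and 8.94 on shNrf3-NC, a difference of 1.90) and Nipa2, a magnesium transporter gene (8.01 and 9.24, a difference of 1.22). In HFD the same genes differed by 0.29 and 0.23. Herc2 differed by -0.58 in NC and -0.42 in HFD, and Tubgcp5 by 0.09 in both.

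Of the listed genes at other loci, Igf2 alone read above the control median. Igf2, the growth factor gene that is paternally expressed in the fetus, read 5.85 on shCtrl-NC, 5.56 on shNrf3-NC, 5.64 on shCtrl-HFD and 5.45 on shNrf3-HFD, at the 51.2nd to 59.1st percentile of the negative controls. The whole range of 0.40 lay within 0.47 of the control median. Igf2 was thus at background level on all 4 arrays and lowest on shNrf3-HFD.

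Peg3, a paternally expressed zinc finger gene, read 4.77 on shCtrl-NC, 3.003 on shNrf3-NC, 3.51 on shCtrl-HFD and 2.70 on shNrf3-HFD. Peg10, a retrotransposon-derived gene needed for the placenta, read 4.89, 4.98, 3.39 and 4.45 in that order. Dlk1, a Notch ligand relative that marks preadipocytes, read 3.60, 3.39, 4.22 and 3.73. All 12 of these readings lay below the control median of their array, so their differences were not read. With Magel2, 4 of the 7 measured genes gave no reading above the control median on any array, and 0 of the 6 other than Ipw reached the control 95th percentile on any.

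Of the 7 genes 3 had a difference with shNrf3 in HFD, the rest lying below the control median on both arrays. Ipw, chosen for its reading there, was the only 1 of the 3 that was 2-fold or more higher (background 2.13%). Lower were 0 (6.36%). The backgrounds are shares of the named genes with a difference. Ndn differed by -0.39 and Igf2 by -0.19 in that comparison, beside a median of -0.11 over all named genes. In NC 0 of the 2 with a difference were 2-fold apart (background 11.6% higher and 4.19% lower), with Ndn at 0.25 and Igf2 at -0.29. Between diets with shCtrl 0 of the 2 with a difference were 2-fold apart (12.8% higher and 3.59% lower), and Ndn was -0.76. Between diets with shNrf3, 3 had a difference. Of these, Ndn was 2-fold or more lower in HFD (-1.39, background 4.6% lower) while Ipw was higher (background 1.7%). The Ndn reading on shNrf3-HFD was at background level, 0.051 above the control median. With readings floored at the control 95th percentile, the Ndn call and both Ipw calls were lost. That loss was fixed beforehand, since Ndn never reached that floor and Ipw exceeded it by only 0.096 on shNrf3-HFD. The background depended on the scaling, and after quantile normalization 9.02% were higher and 6.7% lower in NC.

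For Ndn both NC arrays read above both HFD arrays, and the shNrf3 difference changed by -0.64 from NC to HFD. Skeletal muscle markers had a median level of 5.10 on shCtrl-NC, 9.46 on shNrf3-NC, 6.11 on shCtrl-HFD and 4.70 on shNrf3-HFD, and adipocyte markers 7.08, 11.12, 8.496 and 7.85. The highest and the lowest Ndn reading fell on the arrays with the highest and the lowest muscle marker median, while the other 2 arrays had the opposite order. The part of these cells in the Ndn values was not tested. Of 10 markers of neurons and Schwann cells, where Ndn, Magel2 and Snrpn are typically high, 0 reached the control 95th percentile on any array and 7 to 9 read below the control median.

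Of the further imprinted genes, the row nearest to the missing H19 is that of Mir675, a microRNA made from the H19 transcript. Its probe set read 7.16 on shCtrl-NC, 7.24 on shNrf3-NC, 7.53 on shCtrl-HFD and 8.49 on shNrf3-HFD, and was highest on the array where Ipw was high. The difference from shCtrl-HFD was 0.96 as deposited, 1.11 after cyclic loess and 1.12 after quantile normalization, so that it passed 2-fold in those scalings only. Against shNrf3-NC it was 1.25. All 4 readings lay below the control 95th percentile. The platform annotation lists for this probe set, beside the Mir675 record, another transcript record that the RefSeq table used here does not hold and that may be an older H19 record. The values may therefore be those of H19, and are given under the annotated symbol only.

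A list of 71 further imprinted genes had 59 measured members, of which 31 (52.5%) read above the control median on all 4 arrays and 22 (37.3%) on none. These shares were near those of all named genes, 50.1% and 38.5%. Of 35 with a difference in NC, 1 was 2-fold or more higher with shNrf3 and 6 were lower (background 11.6% and 4.19%). Of 35 in HFD 0 were higher and 9 lower (2.13% and 6.36%), or 2 higher and 9 lower after cyclic loess or quantile normalization, where Mir675 and Sfmbt2 passed 2-fold. The background was then 2.83% higher and 4.47% lower after loess, and 2.91% and 4.17% after quantile normalization. The medians were -0.06 in NC and -0.34 in HFD, beside 0.08 and -0.11 over all named genes. The 2 counts use different arrays, and 4 genes were 2-fold or more lower in both, as were 82 of 10886 named genes (0.753%). Higher in both were 0, against 0.744% of named genes.

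Those 4 genes were Mest, Tnfrsf22, Tnfrsf23 and Trappc9. Mest, a paternally expressed gene of mesoderm and growing fat, read 9.77 on shCtrl-NC, 7.74 on shNrf3-NC, 9.30 on shCtrl-HFD and 7.95 on shNrf3-HFD, with differences of -2.03 in NC and -1.35 in HFD. Tnfrsf22 and Tnfrsf23, decoy receptor genes for the death ligand TRAIL that lie side by side at the Kcnq1 locus, were 4.82-fold and 3.63-fold lower in NC and 3.37-fold and 2.82-fold lower in HFD. They are close in sequence, so their probe sets are not independent. Trappc9, a gene of vesicle traffic, differed by -1.28 and -1.26. For all 4 both shCtrl readings lay above both shNrf3 readings.

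**Figure D4:**
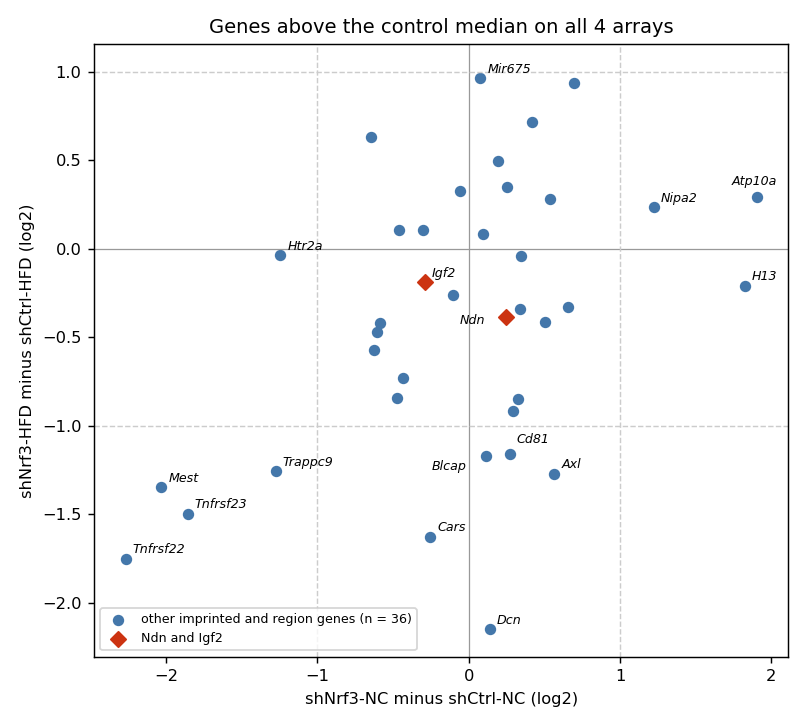
Difference (log2) of shNrf3 minus shCtrl in NC (horizontal axis) and in HFD (vertical axis), with 1 array per group. Points are Ndn, Igf2 and the 36 other imprinted and region genes that read above the control median on all 4 arrays. Dashed lines mark 2-fold. Mest, Tnfrsf22, Tnfrsf23 and Trappc9 lie past 2-fold in both diets, and Ndn and Igf2 lie near the centre.

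Stromal and endothelial markers differed on the same arrays. Of all named genes 4.19% were 2-fold or more lower with shNrf3 in NC and 6.36% in HFD, and 11.6% and 2.13% were higher. Of 9 measured fibroblast and pericyte markers 4 were 2-fold or more lower with shNrf3 in NC and 8 in HFD, with 0 higher in either. Their median level was 14.43 on shCtrl-NC, 13.89 on shNrf3-NC, 13.95 on shCtrl-HFD and 11.80 on shNrf3-HFD. Pdgfrb, the pericyte receptor gene, read 9.35, 7.95, 9.999 and 8.08 and so had the same division into shCtrl and shNrf3 arrays as Mest. Of 5 endothelial markers with a difference 4 were 2-fold or more lower with shNrf3 in NC and 3 in HFD, with 0 higher. Cdh5, the endothelial cadherin gene, read 10.62, 8.65, 9.73 and 8.11, also with both shCtrl arrays above both shNrf3 arrays. The part of stromal and endothelial cells in the Mest values was not tested. Decorin (Dcn), listed because it is imprinted in the placenta and also a fibroblast marker, differed by 0.14 in NC and -2.15 in HFD.

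In the diet comparisons, of 36 further imprinted genes 4 were higher by at least 2-fold and 4 lower in HFD with shCtrl (background 12.8% and 3.59%), and 1 higher and 2 lower with shNrf3 (1.7% and 4.6%). With shCtrl the background was 7.66% and 5.66% after loess and 7.67% and 6.04% after quantile normalization. In these scalings Ppp1r9a, a neuronal scaffold gene, went from 1.05 to 0.75 and 0.73. Inpp5f went from 0.99 to 1.02 and 1.01 there, so the count higher stayed at 4. Grb10, an adaptor gene that restrains insulin signalling, was lower in HFD with both constructs. It read 7.43 on shCtrl-NC, 6.82 on shNrf3-NC, 6.27 on shCtrl-HFD and 5.80 on shNrf3-HFD, with differences of -1.16 and -1.02. Dcn was the other gene lower with both (-1.06 and -3.35), as were 0.496% of all named genes, while 0 were higher with both (0.313%), and after centring on the median the former value was -0.95. H13, a signal peptide peptidase gene, read 10.30 on shCtrl-NC and 11.79 to 12.12 on the other 3 arrays. Cd81 (1.44) and Axl (1.67) were higher in HFD with shCtrl.

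The lists were also counted by parent of origin, and the difference between the parental groups was not tested. Of 20 measured genes that are paternally expressed, 6 read above the control median on all 4 arrays and 0 above the control 95th percentile on all 4. These 6 were Ndn, Mest, Igf2, Mcts2, Sfmbt2 and Rasgrf1. Of 22 that are maternally expressed, 12 read above the control median on all 4 arrays and 6 above the 95th percentile, Ube3a, Igf2r, H13, Cd81, Nap1l4 and Tnfrsf23. The shares above the control median were 30.0% and 54.5%, beside 50.1% of all named genes, and those above the 95th percentile were 0% and 27.3%, beside 18.9%. At the Peg3 locus 0 of 3 measured genes did so, and at the Dlk1 locus 0 of 3. The assignment to a parental copy is textbook knowledge made after the values were seen, it holds in some tissues only, and the arrays do not tell the copies apart.

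The listed factors with a part in imprints, called maintenance factors below, gave no 2-fold difference between hairpins in either diet. Of 26 measured genes 19 read above the control median on all 4 arrays and 7 on none, the latter being Dnmt3b, Dnmt3l, Zfp57, Dppa3, Ctcfl, Tet1 and Zfp42. Dnmt1, the maintenance DNA methyltransferase gene, read 9.10 to 9.54, and Trim28, the co-repressor that imprint-binding zinc finger proteins recruit, 9.25 to 9.77. With shNrf3, 0 of 19 were 2-fold apart in NC (background 11.6% higher and 4.19% lower) and 0 of 19 in HFD (2.13% and 6.36%). The largest difference in either diet was that of Tet2, which encodes an enzyme that oxidizes methylated DNA. It read 8.99 on shCtrl-NC, 9.02 on shNrf3-NC, 9.16 on shCtrl-HFD and 8.24 on shNrf3-HFD, a difference of -0.93 in HFD. Some other factors above the control median were also lowest on shNrf3-HFD, while others were highest there. Uhrf1, which brings DNMT1 to newly made DNA, had the largest difference upward in each, at 0.75 and 0.73, below 2-fold. Between diets Smchd1, a chromatin gene that silences some imprinted clusters and acts on the Snrpn region, was higher in HFD with shNrf3 by 1.21. It was 1 of 19, beside a background of 1.7% higher. Smchd1 read 8.08 on shCtrl-NC, 7.43 on shNrf3-NC, 8.49 on shCtrl-HFD and 8.64 on shNrf3-HFD. Its shNrf3-HFD reading was thus only 0.15 above that of shCtrl-HFD, and its shNrf3-NC reading was the lowest. Kdm1b, a histone demethylase gene of the egg, was lower in HFD with shCtrl (-1.03, or -0.93 after centring). It was 1 of 19 as deposited, beside a background of 3.59% lower.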

How the data were processed

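The deposited values are log2 signals. Per the submitters' processing notes, the authors used RMA in Affymetrix Expression Console. No version or annotation build was stated, so no coordinates are printed. RMA adjusts between arrays. The deposited values ran from 1.50 to 19.93, and whether low signals were shrunk or stretched was not checked. The platform annotation gives 1 symbol for 19572 probe sets and none for 2634 transcript rows. Of 55 genes with several probe sets the brightest by mean was taken. Negative controls are the 5222 rows so named by their identifiers.

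From these values levels, differences and counts at 2-fold were computed with Python 3.11.15 and pandas 2.3.3. A reading below its array's control median was set to that median, giving a bound, and a pair with both below had no difference. No test was run, since each group has 1 array. The counting was tested on simulated data. Alternatives were cyclic loess (limma 3.58.1), centring, quantile normalization, no floor, a floor at the control 95th percentile, a filter on mean level, 1.5-fold and the mean of probe sets. The genes and lists were chosen with earlier results of these data known. The named genes were the listed ones, those 2-fold apart in both comparisons of a kind, the largest differences of each list (up to 4 each way) and the largest lone excesses. Outside that rule, Pdgfrb, Cdh5, Inpp5f, Dnmt1, Trim28 and Myh4 were chosen after their values were seen. So were the maintenance factors never above the control median and the genes named for their parental copy.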

Additional observations from a re-analysis of the deposited data

Results flagged for a closer look

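These genes are listed because a difference had opposite signs in the 2 settings of 1 contrast. With 1 array per group, the difference between settings was not tested. The shNrf3 minus shCtrl difference of Ndn was 0.25 in NC and -0.39 in HFD, both under 2-fold. That of Rasgrf1 was -0.65 and 0.63. The HFD minus NC difference of Atp10a was 0.87 with shCtrl and -0.74 with shNrf3. Cars had 0.75 and -0.62 for the same contrasts, and Blcap had 0.68 and -0.60.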

How the results depend on the processing

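No paired analysis was possible because each group has 1 array, and for the same reason leaving out a replicate was not run.

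The Ipw excess was 4.29 as deposited, 4.31 after cyclic loess, 4.33 after centring and 4.30 after quantile normalization, and 3.84 with readings floored at the control median, a choice made after the data were seen. With the floor at the control 95th percentile it was -0.12, because the shCtrl-NC floor exceeds the Ipw reading. The HFD minus NC change in the shNrf3 minus shCtrl difference of Igf2 was 0.10 as deposited. It reversed to -0.12 after loess, -0.041 after centring and -0.065 after quantile normalization. The same change for Ndn was -0.78 after centring. Nfe2l3 differed in NC by -0.56 after loess, -0.56 after centring and -0.60 after quantile normalization, and in HFD by 0.24, 0.23 and 0.26.

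With the floor at the control 95th percentile, 0 of the 7 genes and 0 of the region were called in any comparison. For the 7 genes this was fixed beforehand. The 6 other than Ipw never reached that floor, and Ipw exceeded it by only 0.096 on shNrf3-HFD. Of the other region genes only Ube3a and Nipa2 reached it on any array. Counts of further imprinted genes here are over the list of 63 measured genes that also holds Igf2, Peg3, Peg10 and Dlk1. Further imprinted genes there had 2 lower in NC with shNrf3, and 1 lower in HFD with each construct and 0 higher with shNrf3, and maintenance factors had 0 called between diets. Of all named genes with that floor 2.59% were lower in NC with shNrf3. Between diets 1.65% were lower with shCtrl, and 3.73% lower and 0.632% higher with shNrf3. With no floor, which reads differences within background, the 7 genes had 2 lower in NC and 2 higher in HFD with shNrf3, and 2 lower in HFD with shCtrl. The region then had 1 lower in NC. Further imprinted genes had 2 higher and 10 lower in NC, 3 higher in HFD, 10 lower between diets with shCtrl and 3 higher with shNrf3. The matching shares of all named genes were 8.56% and 6.68%, 5.17%, 7.88% and 3.78%. Lower in HFD with shNrf3 over shCtrl were 5.23% of them, and lower between diets with shNrf3 4.13%. Maintenance factors had 1 higher and 1 lower in HFD, 2 lower between diets with shCtrl and 1 lower with shNrf3.

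At 1.5-fold, 1 of the 7 genes was lower between diets with shCtrl, and the region had 2 higher and 1 lower there and 2 lower with shNrf3. Further imprinted genes had 3 higher and 10 lower in NC, 4 higher in HFD, 10 higher between diets with shCtrl, and 2 higher and 7 lower with shNrf3. All named genes then had 24.0% higher and 13.4% lower in NC, and 8.95% higher and 19.2% lower in HFD. Between diets they had 27.9% higher and 11% lower with shCtrl, and 8.86% and 13.6% with shNrf3. Maintenance factors had 2 higher and 4 lower in NC, 1 and 4 in HFD, 2 and 2 between diets with shCtrl and 2 lower with shNrf3. Further imprinted genes had 2 higher in HFD after loess or quantile normalization. Maintenance factors lower with shCtrl between diets numbered 2 after loess or quantile normalization and 0 after centring. The filter on mean level and the mean of probe sets moved no count by over 1.5 times. Ipw passed that filter narrowly, with a mean of 5.735 against a cut of 5.730, and only through its shNrf3-HFD reading. Its calls under the filter therefore follow from the reading it was chosen for. Signal over background is a limit beside the 1 array per group, since 4 of the 7 genes read below the control median throughout.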
